A study of Homo sapiens with 24 samples.

Results

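RNA levels of A375 melanoma cells that overexpressed SLNCR without triplex-forming region 1 (ΔTFR1, 3 libraries) were compared with those of cells that overexpressed full-length SLNCR (FL, 3 libraries). These 6 libraries were chosen by their group labels out of 24 in the study, and all 6 come from the same raw count table. The study asked which genes the triplex-forming regions of this long noncoding RNA regulate. Its other groups in the same table, 3 libraries with empty vector and 3 with SLNCR lacking region 2 (ΔTFR2), entered the model for the estimate of spread and are given beside the results.

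A375 is an established human melanoma line, here bought from ATCC and kept in DMEM with fetal bovine serum. Every group was transfected by lipofection with a pcDNA3.1 plasmid that held a CAG promoter and a puromycin resistance gene. The FL plasmid carried the whole SLNCR, the ΔTFR1 plasmid carried SLNCR lacking region 1, and the empty vector carried no insert. RNA was taken after 48 h in medium with 2 μg/mL puromycin, and ribosomal RNA was depleted before sequencing. The cells kept their own SLNCR gene, so the deleted RNA was measured on top of the endogenous one. The 3 replicates of a group are described as biological.

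A triplex forms when a single RNA strand lies in the groove of a DNA duplex and pairs with a purine-rich strand of it. Through such contacts a long noncoding RNA can in principle reach particular promoters without an intermediate protein. SLNCR, encoded by LINC00673, is known in melanoma for work that ties it to invasion through the transcription factor Brn3a (gene POU4F1) and the matrix protease gene MMP9.

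The 6 libraries held 8627449 to 10789211 counts each, over 28008 genes. A gene was called when edgeR's quasi-likelihood test gave an adjusted p under 0.05 among the 14310 genes tested. Levels are CPM, a gene's count scaled to a fixed normalised total for every library, and changes are log2 fold changes of ΔTFR1 minus FL ± standard error. The melanoma genes MITF (81.1 to 101 CPM in the 6 libraries), AXL (788 to 838 CPM) and SOX10 (11.3 to 17.2 CPM) were detected, while TYR and S100B were listed at 0. The labels call the cells epithelial, but the epithelial genes EPCAM, CDH1, KRT5, KRT14 and KRT19 all stayed under 0.46 CPM in these libraries. KRT8 and KRT18 were present, at 126 to 160 and 287 to 361 CPM.

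The overexpressed RNA itself was measured first. SLNCR stood at 165, 240 and 220 CPM in the 3 FL libraries and at 191, 205 and 197 CPM in the 3 ΔTFR1 libraries. The ΔTFR1 values lay inside the range of FL, and both groups were far above the 18.9 to 20.8 CPM of the empty vector. The change was -0.07 ± 0.11 with an adjusted p of 0.714. Without FL replicate 1, the FL library with the lowest SLNCR level, it was -0.23 with an adjusted p of 0.0249. The table gives 1 count for each gene and so does not show whether region 1 was missing. Of the genes tied to SLNCR, MMP9 was nearly absent, with 2 counts in FL and 4 in ΔTFR1, and was not tested. POU4F1 (0.09 ± 0.22, adjusted p 0.819), EGR1 (0.26 ± 0.11, adjusted p 0.115) and CDKN1A (0.05 ± 0.05, adjusted p 0.537) were not called, and their groups overlapped.

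Between ΔTFR1 and FL, 1440 genes were called, which is 10.1% of those tested. Of these, 630 were higher in ΔTFR1 (4.4%) and 810 were lower (5.66%). The changes were small: the median was 0.27 for genes called higher, a 1.21-fold difference, and -0.24 for genes called lower, a 0.847-fold difference. A change of at least 1 on the log2 scale was reached by 10 genes called higher and 2 called lower. In 1367 of the called genes the 3 libraries of one group all lay beyond the 3 of the other. Such a separation occurred in 28.9% of all tested genes, with ΔTFR1 above FL in 15.1% and below it in 13.8%.

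The 10 genes with the lowest p were all lower without region 1. CBFB, the partner subunit of the RUNX transcription factors, was at 171, 167 and 178 CPM in FL and at 129, 139 and 139 CPM in ΔTFR1. All ΔTFR1 libraries lay below all FL libraries, a fall of -0.34 ± 0.05 (adjusted p 0.00114). SPCS3, a subunit of the signal peptidase, was at 270.4, 263 and 289 CPM in FL against 201, 223 and 223 CPM in ΔTFR1 (-0.35 ± 0.05, adjusted p 0.00114). XPO1, the main nuclear export receptor, went from 714, 671 and 761 CPM in FL to 576, 604 and 598 CPM (-0.27 ± 0.05, adjusted p 0.00325). GLIPR1 fell by 0.37 and TRUB1, a pseudouridine synthase, by 0.41. The lowest p among higher genes belonged to FASN, the fatty acid synthase, with 599.5, 635 and 543 CPM in FL and 735, 705 and 704.5 CPM in ΔTFR1 (0.27 ± 0.05, adjusted p 0.00437). SRCAP, a chromatin-remodelling ATPase, rose by 0.26, DVL1, a Wnt pathway scaffold, by 0.29 and SUPT5H, a transcription elongation factor, by 0.28.

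The largest changes lay in genes of low level. PLXNA4, a semaphorin receptor, rose most among the genes named by the rule (1.57 ± 0.42, adjusted p 0.0243), but its ΔTFR1 libraries were at 1.84, 1.53 and 5.78 CPM against 1.20, 0.654 and 1.19 CPM in FL. Without ΔTFR1 replicate 3 its change was 0.71 with an adjusted p of 0.268. TMEM86B, a lysoplasmalogenase, was more even, at 2.31, 2.90 and 2.05 CPM in FL and 5.86, 4.799 and 5.20 CPM in ΔTFR1 (1.11 ± 0.22, adjusted p 0.00536). COX17, which delivers copper to the terminal respiratory enzyme, rose by 0.96 ± 0.24 (adjusted p 0.0154). NME2, a nucleoside diphosphate kinase, rose by 1.03 ± 0.27 (adjusted p 0.0207), though it overlaps a read-through transcript with its neighbour NME1, so how its reads were assigned is uncertain. MIR34AHG, the host of a p53-induced microRNA, rose by 0.87, with 8.04 CPM in ΔTFR1 replicate 1 against 3.49 and 4.28 CPM in the others. Without that replicate it was 0.43, with an adjusted p of 0.339. Among the genes named by the rule, the largest falls were in CDKL3, a kinase (-1.12 ± 0.33, adjusted p 0.0318), and PRRX1, a homeobox factor of mesenchymal cells (-0.91 ± 0.27, adjusted p 0.0317), both at under 3.6 CPM in every library of the 2 groups.

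Genes called in opposite directions differed in base composition. The median transcript GC content was 60.6% for genes higher in ΔTFR1, 39% for genes lower in ΔTFR1 and 48.3% for all tested genes. In the GC-poorest 10% of genes the median change was -0.18, and 355 genes were called lower and 1 higher. In the GC-richest 10% it was 0.21, with 248 called higher and 1 lower. Across the 13557 genes with a known transcript, Spearman's rho between change and GC content was 0.625, a description over genes, which are not independent replicates. Transcripts called lower were also longer, with a median of 4470 bases against 3120 for those called higher.

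**Figure D1:**
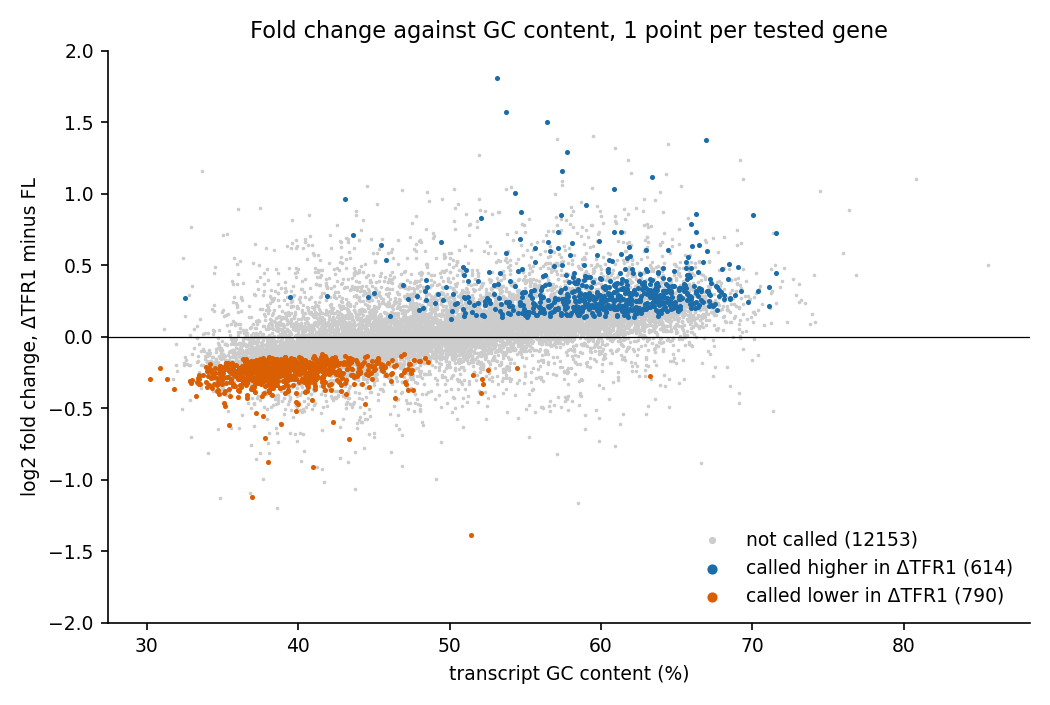
Log2 fold change of ΔTFR1 minus FL (vertical) against transcript GC content in percent (horizontal), 1 point per tested gene with a known GC content. Blue points, called higher, lie mostly to the GC-rich side (median 60.6%) and orange points, called lower, to the GC-poor side (median 39%).

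The same pattern could be followed in single libraries. In each library the median centred level of the GC-poorest 10% of genes was subtracted from that of the GC-richest 10%. The difference was -0.27, -0.15 and -0.51 in the FL libraries and 0.15, 0.06 and 0.02 in the ΔTFR1 libraries, so the groups did not overlap. It was 0.29, 0.19 and 0.04 with empty vector and 0.05, 0.13 and 0.02 in ΔTFR2. FL was the only group of the 4 with negative values, and FL replicate 3 lay furthest out. Whether the GC pattern arose in the cells or in the handling of the libraries was not tested.

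**Figure D2:**
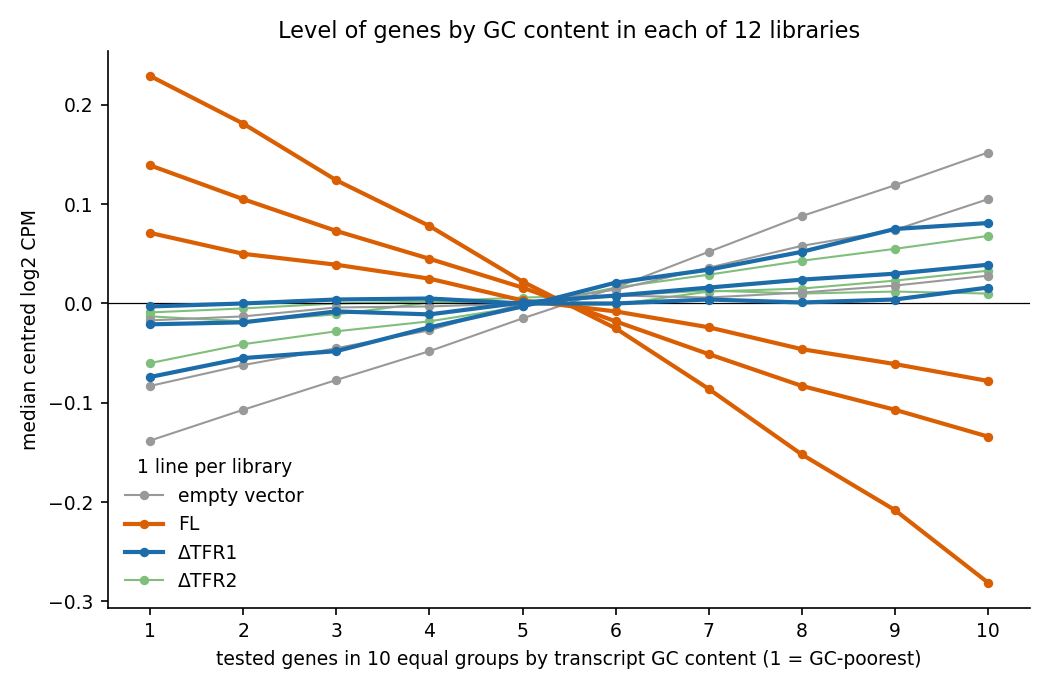
Median centred log2 CPM (vertical) of genes in 10 equal groups by transcript GC content (horizontal, 1 is GC-poorest), with 1 line for each of 12 libraries. The 3 FL lines fall from left to right, while the ΔTFR1 and ΔTFR2 lines are flat or rise, and 2 of the 3 empty vector lines rise more steeply (by 0.29 and 0.19 between the end groups).

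When each library's trend with GC content was removed before the fit, 8 genes were called among 13557 (0.059%), 2 higher (0.0148%) and 6 lower (0.0443%) in ΔTFR1. Of these 8, 7 were also among the 1440. By edgeR 1619 of the 13557 genes had an unadjusted p under 0.05 in this fit, against 3954 of 14310 in the main fit. With GC trends removed, ΔTFR1 against empty vector had 581 such genes. In this fit the change was -0.16 for SPCS3 (adjusted p 0.082), -0.13 for XPO1 (adjusted p 0.0722), 0.05 for FASN (adjusted p 0.499) and 1.04 for COX17 (adjusted p 0.0627). HIF1A-AS2, a noncoding RNA antisense to the hypoxia factor gene HIF1A, had the lowest p. It was at 121, 113 and 139 CPM in FL and at 91.4, 97.8 and 98.2 CPM in ΔTFR1, with no overlap. Its change was -0.37 ± 0.07 without the correction (adjusted p 0.00415) and -0.37 with it (adjusted p 0.00687). HIF1A itself changed by -0.16 (adjusted p 0.0436) and, with GC trends removed, by 0.03 (adjusted p 0.801). The strand setting of the counting is not given in the sources used here, so reads of HIF1A-AS2 and of HIF1A cannot be told apart where they overlap.

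Another 5 genes were lower without region 1 after the correction. CBFB kept a change of -0.22 (adjusted p 0.034), while RUNX1, which CBFB binds, changed by -0.05 (adjusted p 0.59 in the uncorrected fit). UBA2, the catalytic subunit of the SUMO-activating enzyme, was at 291, 282 and 303 CPM in FL and 243, 249 and 245 CPM in ΔTFR1. The ΔTFR1 libraries were all lower, by -0.25 ± 0.04 before the correction and -0.19 after it (adjusted p 0.0497). Its partner subunit SAE1 changed by 0.05 (adjusted p 0.602 in the uncorrected fit). MMADHC, which routes vitamin B12 inside the cell, was at 158, 143 and 178 CPM in FL and 127, 126 and 128 CPM in ΔTFR1 (-0.24 after the correction, adjusted p 0.0497). SCOC, a small coiled-coil protein of the Golgi, was at 63.9, 55.4 and 76.5 CPM in FL and 39.9, 47.3 and 45.8 CPM in ΔTFR1 (-0.38 after the correction, adjusted p 0.0497). HS3ST3A1, a heparan sulfate sulfotransferase with a GC-rich transcript, was called only after the correction (-0.30, adjusted p 0.0497), against -0.13 (adjusted p 0.161) before it.

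Both genes that were higher are noncoding. RUSC1-AS1, antisense to RUSC1, was at 24.96, 26.4 and 20.8 CPM in FL and 33.4, 35.5 and 32.6 CPM in ΔTFR1 (0.44 after the correction, adjusted p 0.0497). RUSC1 itself changed by 0.02 (adjusted p 0.893), and here too the unknown strand setting leaves reads of overlapping parts unassigned. SMG1P1, a pseudogene related to the kinase gene SMG1 of nonsense-mediated decay, was at 10.1 to 11.02 CPM in FL and 20.3, 16.4 and 16.0 CPM in ΔTFR1 (0.78 after the correction, adjusted p 0.0123). Its reads may be shared with near-identical copies, so its level is uncertain, and SMG1 changed by 0.04 (adjusted p 0.661). In the uncorrected fit without ΔTFR1 replicate 1, the calls of SMG1P1 (adjusted p 0.0627), SCOC (0.0591) and RUSC1-AS1 (0.0531) were lost. With GC and length trends removed, SMG1P1 was called (adjusted p 0.0131), whereas HIF1A-AS2 had an adjusted p of 0.114 and the other 6 genes 0.0529.

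**Figure D3:**
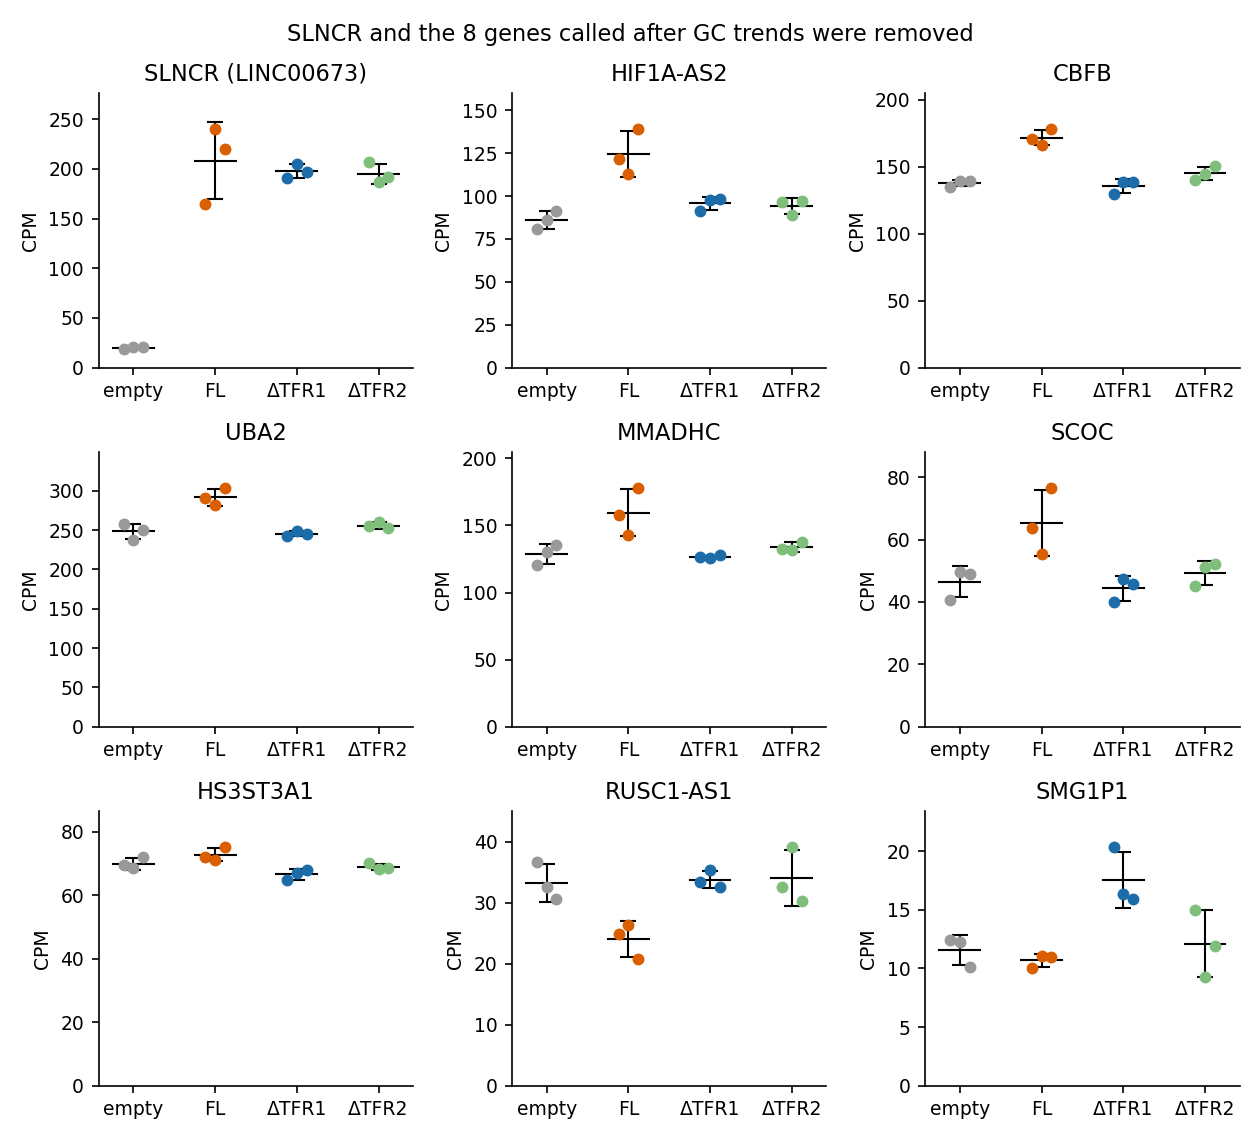
Levels in CPM (vertical, from 0) of SLNCR and of the 8 genes called after GC trends were removed, in 4 groups of 3 libraries. Points are libraries, and bars give the mean and SD. SLNCR overlaps among FL, ΔTFR1 and ΔTFR2, and for HIF1A-AS2, CBFB, UBA2, MMADHC and SCOC the FL points lie above the ΔTFR1 points.

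The 8 genes were also set beside the empty vector. For 7 of them the difference of ΔTFR1 minus empty vector ran from -0.07 (HS3ST3A1) to 0.16 (HIF1A-AS2). CBFB was at 135, 139 and 139 CPM with empty vector, and UBA2 at 258, 238 and 250.1 CPM, so that the ΔTFR1 values of both overlapped with it. For HIF1A-AS2 the empty vector libraries, at 80.98, 86.2 and 90.99 CPM, all lay below those of ΔTFR1, and for HS3ST3A1, at 69.4, 68.5 and 72.1 CPM, all lay above them. Over all genes, ΔTFR1 against empty vector gave 1 call by edgeR, SLNCR itself (0.00699% of genes), and 1 call by DESeq2. By edgeR 589 of 14310 genes had an unadjusted p under 0.05, against 3954 for ΔTFR1 against FL. FL against empty vector had 5149 such genes and ΔTFR2 against FL 3884, each with the same FL libraries as the main comparison. Where nothing differs, a share of about 0.05 of the genes passes that level. SMG1P1, the other gene of the 8, was at 12.4, 12.2 and 10.1 CPM with empty vector, below all ΔTFR1 libraries, but that difference of 0.59 had an adjusted p of 0.992. ΔTFR2 against ΔTFR1 gave 0 calls by edgeR (0%), with 551 of 14310 genes at an unadjusted p under 0.05, and 0 calls by DESeq2. A p that misses the threshold does not show that the 2 deletions act alike. ΔTFR2 against FL shares its FL libraries with the main comparison, so its values are given only side by side. HIF1A-AS2 was at 96.6, 89.1 and 97.3 CPM in ΔTFR2 and SMG1P1 at 15.01, 9.30 and 11.9 CPM. Mean levels in ΔTFR2 and ΔTFR1 were 145 and 135.7 CPM for CBFB, 255.9 and 245.6 for UBA2, and 133.9 and 126.6 for MMADHC. They were 49.38 and 44.32 CPM for SCOC, 34.02 and 33.82 for RUSC1-AS1, and 69.01 and 66.64 for HS3ST3A1. A gene described as lower or higher without region 1 is thus not shown to be particular to region 1.

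Leaving out single libraries moved the number of called genes strongly. It was 22 without ΔTFR1 replicate 1, 283 without FL replicate 3 and 2752 without FL replicate 2. It was 804 without FL replicate 1, 788 without ΔTFR1 replicate 2 and 1004 without ΔTFR1 replicate 3. These fits share most of their libraries. Of the 22 genes called without ΔTFR1 replicate 1, 21 were lower, so at most 1 higher gene could be called in every fit. In the main fit and in all 6 fits with 1 library left out 19 genes were called, and all 19 were lower in ΔTFR1. They are SPCS3, CBFB, GLIPR1, TRUB1, CMPK1, XPO1, EMB, HIF1A-AS2, CMTM6, YIPF5, SGO2, UBA2, MMADHC, RASSF8, FANCL, BTF3L4, SYPL1, TIPRL and RBPJ. Among them CMTM6 maintains PD-L1 at the cell surface, RBPJ is the DNA-binding factor of Notch signalling, and CMPK1 makes pyrimidine nucleotides. Only CBFB, HIF1A-AS2, UBA2 and MMADHC of the 19 were also called with GC trends removed.

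**Figure D4:**
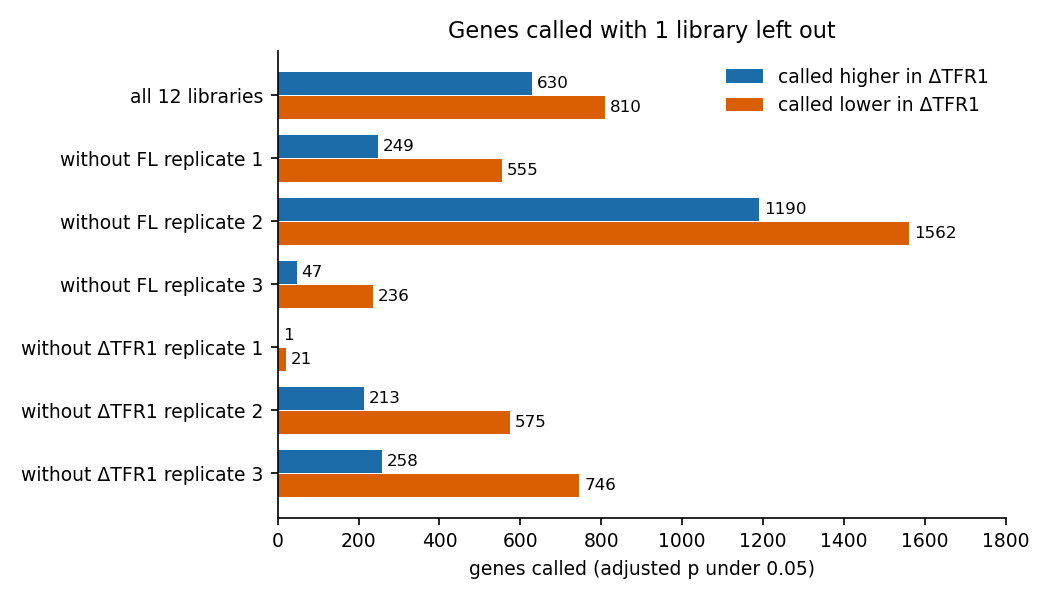
Number of genes called higher (blue) and lower (orange) in ΔTFR1 than in FL, with all 12 libraries and with 1 FL or ΔTFR1 library left out. The counts run from 22 in all without ΔTFR1 replicate 1 to 2752 without FL replicate 2.

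Gene lists were described by counts and medians, beside 10.1% called and a median change of 0.02 over all genes tested. Of 44 genes of G2 and mitosis, 15 fell, 1 rose and 28 were not called, with a median of -0.14. SGO2, which protects cohesion at centromeres, was at 72.5, 69.6 and 69.7 CPM in FL and 53.6, 58.0 and 50.9 CPM in ΔTFR1 (-0.38 ± 0.07, adjusted p 0.00437). NUF2, a kinetochore protein (-0.36), CCNA2, cyclin A2 (-0.23), and CENPE, a mitotic motor (-0.22), fell as well, whereas AURKB, the Aurora B kinase, rose (0.23, adjusted p 0.0273). Of 24 cohesin, condensin and SMC genes 9 fell, 0 rose and 15 were not called, with a median of -0.12, among them SMC2 (-0.24), RAD21 (-0.18), PDS5A (-0.18) and the acetyltransferase ESCO1 (-0.25). Of 40 DNA replication genes, 2 rose and 1 fell, and of 68 centrosome and centriole genes 4 rose and 6 fell. The transcripts of the mitosis and cohesin lists were GC-poor, with medians of 41.5% and 39.8%. With GC trends removed the list medians were -0.02 and -0.01 and 0 members of either were called. Without ΔTFR1 replicate 1, 1 mitosis gene and 0 cohesin genes were called lower. Without FL replicate 3 these counts were 4 and 1, and without FL replicate 2 they were 21 and 13. Without FL replicate 1 or ΔTFR1 replicate 2 they were 9 and 5 in each case.

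Of 52 replication-dependent histone genes, 9 rose, 0 fell and 43 were not called, with a median of 0.27, and the ΔTFR1 libraries all lay above FL for 25 of them, against 15.1% over all genes. HIST2H2BE was at 298.5, 315 and 299.6 CPM in FL and 355, 359 and 325.5 CPM in ΔTFR1 (0.19 ± 0.05, adjusted p 0.0222), and HIST2H2BF rose by 0.26. Histone genes have near-identical copies, so single members are uncertain. Their median was 0.18 with GC trends removed, with 0 members called, and 0.12 with GC and length trends removed, and their median transcript length was 436 bases. It was 0.15 without FL replicate 3. The median centred level of the histone list was -0.19, -0.04 and -0.45 in the FL libraries and -0.01, 0.15 and 0.01 in ΔTFR1. Of 24 genes of glycolysis and the pentose phosphate pathway, 6 rose, 0 fell and 18 were not called, with a median of 0.10. They include PFKL (0.28) and PFKM (0.23), subunits of phosphofructokinase, and PKM, a pyruvate kinase (0.15 ± 0.04, adjusted p 0.0199). Shares called were 17.3% for the histone list and 25% for the glycolysis list, beside 10.1% over all genes, with 4.4% called higher. The glycolysis median was 0.03 with GC trends removed, and 0 members were called. Without ΔTFR1 replicate 1 or without FL replicate 3, 0 histone genes and 0 glycolysis genes were called, and without FL replicate 2 the counts were 33 and 8. Without FL replicate 1, ΔTFR1 replicate 2 or ΔTFR1 replicate 3 they were 0 to 3 and 1.

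**Figure D5:**
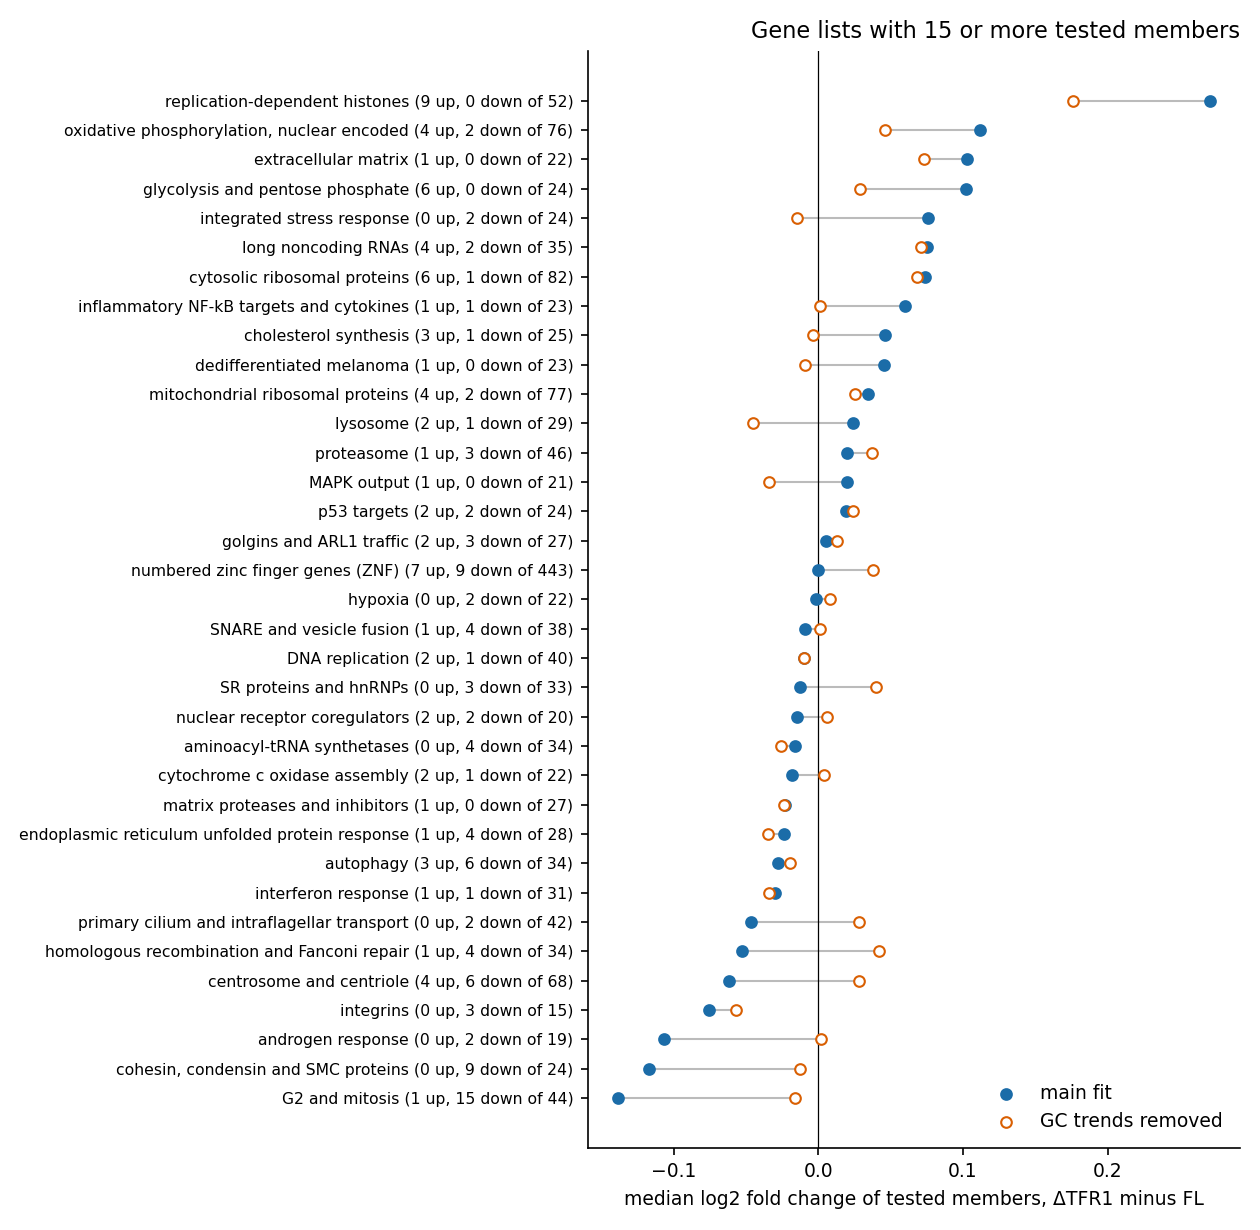
Median log2 fold change of ΔTFR1 minus FL (horizontal) for each gene list with 15 or more tested members, before (filled) and after (open) removal of GC trends. Numbers beside each name give members called higher and lower of those tested. The lists at both ends, histones at 0.27 and G2 and mitosis at -0.14, move toward 0.

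Further lists also held calls, beside 10.1% over all genes. Shares called were 26.5% for autophagy, 7.89% for oxidative phosphorylation and 8.54% for cytosolic ribosomal proteins. They were 14.7% for homologous recombination and Fanconi repair, 20% for integrins and 17.9% for the unfolded protein response. In autophagy, 3 of 34 genes rose and 6 fell: ATG4D (0.35) and the initiating kinase ULK1 (0.28) rose, while GABARAPL2 (-0.27) and ATG12 (-0.22) fell. In oxidative phosphorylation, 4 of 76 rose and 2 fell, with NDUFS5 (0.35) and NDUFB8 (0.39) up and NDUFA5 (-0.28) and NDUFB5 (-0.26) down, all subunits of complex I. Among 82 cytosolic ribosomal protein genes 6 rose and 1, RPS3A, fell (-0.18). Of 34 genes for homologous recombination and Fanconi repair 4 fell, among them FANCL (-0.37) and NBN (-0.26), and 1, FANCA, rose (0.27). Of 15 integrin genes 3 fell, which were ITGAV (-0.23), ITGA2 (-0.20) and ITGA4 (-0.26). Of 28 genes of the endoplasmic reticulum unfolded protein response 4 fell, EDEM3 (-0.27), CANX (-0.16), HSP90B1 (-0.14) and DNAJB9 (-0.39), and 1 rose. In each of these lists, 0 members were called with GC trends removed, and SCOC was the only member of any of the 39 lists that was called in that fit. Without ΔTFR1 replicate 1, 1 repair gene and no member of the other 5 lists was called.

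Protein handling, membrane traffic and 2 other lists also held calls, beside 10.1% over all genes. Shares called were 13.2% for SNARE and vesicle fusion, 8.7% for the proteasome and 11.8% for aminoacyl-tRNA synthetases. They were 9.09% for SR proteins and hnRNPs, 16.7% for p53 targets and 16% for cholesterol synthesis. Of 38 SNARE and vesicle fusion genes 4 fell, among them STX12 (-0.38), VAMP3 (-0.24) and STX16 (-0.23), and 1, USE1, rose (0.28). Of 46 proteasome genes 3 fell, PSMA4 (-0.24) and PSMA1 (-0.25) of the core ring and the assembly factor PSMG2 (-0.33), and 1 rose, PSMB10 of the immunoproteasome (0.35). Of 34 aminoacyl-tRNA synthetase genes 4 fell, among them GARS (-0.17), RARS (-0.17) and IARS2 (-0.16). Of 33 SR protein and hnRNP genes, which act in splicing, 3 fell, SRSF3 (-0.17), SRSF1 (-0.16) and TRA2A (-0.20). Of 24 p53 targets 2 rose, BAX (0.30) and FDXR (0.37), and 2 fell, FAS (-0.30) and CCNG1 (-0.36). Of 25 cholesterol synthesis genes 3 rose, MVD (0.53), MVK (0.38) and DHCR7 (0.25), and 1 fell, SC5D (-0.31). Without ΔTFR1 replicate 1, and likewise with GC trends removed, 0 members of these 6 lists were called.

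Melanoma identity genes are set beside the 10.1% called over all genes. None of 14 tested genes of the melanocyte lineage was called (0%). Of 23 genes of the dedifferentiated melanoma state 1, FOSL2, was (4.35%, 0.18 ± 0.05, adjusted p 0.0301). Of 27 matrix proteases and inhibitors, 1 was called (3.7%), BSG (0.19), an inducer of matrix proteases. In the androgen response list 2 of 19 fell (10.5%), TPD52 (-0.21) and ABCC4 (-0.20). Whether these shares differ from 10.1% was not tested. Of the 6 tested markers of other cell types 1, KRT18, rose (0.19 ± 0.05, adjusted p 0.0161). In bulk RNA a change in the number of cells of a kind and a change in RNA per cell cannot be told apart.

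Promoters were examined for purine tracts, since these are where an RNA strand can form a triplex with DNA. A tract was an unbroken run of at least 15 bases that are all A or G, or all C or T, on the strand of the gene, within 250 bases before to 50 after the start in the RefSeq table (GRCh38.p14). Of 7789 tested genes with 1 listed start, 18.8% had such a tract. The share was 18.9% (68 of 360) in genes called higher in ΔTFR1 and 18.4% (91 of 495) in genes called lower, and 19.1% in all promoters of the table. Of genes with a tract 10.9% were called, and of genes without one 11%. With every listed start counted, the share of starts with a tract was 20.3% over 10841 tested genes. It was 19% for genes called higher and 21.1% for genes called lower. The sequence of region 1 was not available here, so tracts were not matched to it, and these shares do not test binding by region 1. The promoters of the 3 genes with 1 listed start that were called in every fit with 1 library left out and after the GC correction are shown from 250 bases before the start, 5′ to 3′ on the gene's strand, with the longest purine or pyrimidine run in capitals.
HIF1A-AS2, chr14:61749090-61749339, minus strand: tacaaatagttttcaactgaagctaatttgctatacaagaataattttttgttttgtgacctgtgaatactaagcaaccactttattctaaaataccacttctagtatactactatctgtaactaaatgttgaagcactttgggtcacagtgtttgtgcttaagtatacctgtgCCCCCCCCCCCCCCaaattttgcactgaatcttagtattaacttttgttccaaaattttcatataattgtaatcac
MMADHC, chr2:149587776-149588025, minus strand: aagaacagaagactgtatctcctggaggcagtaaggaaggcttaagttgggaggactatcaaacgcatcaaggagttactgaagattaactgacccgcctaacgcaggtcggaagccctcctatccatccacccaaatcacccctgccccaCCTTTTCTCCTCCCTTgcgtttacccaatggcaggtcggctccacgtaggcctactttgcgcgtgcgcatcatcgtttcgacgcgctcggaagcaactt
UBA2, chr19:34428131-34428380, plus strand: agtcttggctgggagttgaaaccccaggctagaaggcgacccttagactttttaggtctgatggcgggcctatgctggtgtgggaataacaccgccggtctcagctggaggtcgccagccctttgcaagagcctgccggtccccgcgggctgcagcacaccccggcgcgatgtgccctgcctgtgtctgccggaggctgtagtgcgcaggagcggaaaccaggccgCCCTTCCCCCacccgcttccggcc
The runs are 14, 16 and 10 bases long, so only that of MMADHC reached the length set for a tract. They are descriptions of these letters, and no binding of SLNCR was measured here.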

How the data were processed

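RNA sequencing libraries of A375 cells were deposited as a table of raw counts per gene symbol, and these counts are the values used here. The submitters' processing notes list STAR 2.7.3a, Subread 1.6.2 with featureCounts, cutadapt 2.5, FastQC 0.11.5 and DESeq2 1.24.0, with GRCh38 and GRCm38 as builds and no role for either. No source used here gives the strand setting or annotation. The second table of the study, with 12 libraries, was not used.

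Groups followed the labels. In edgeR 4.0.16 (R 4.3.3, limma 3.58.1), genes were kept by filterByExpr (minimum count 10, minimum total 15), scaled by TMM and fitted in 1 quasi-likelihood model with robust dispersions over the 12 libraries, with 4 group means and no covariate. The common biological coefficient of variation was 0.0503. The Benjamini-Hochberg adjustment ran over all tested genes, and standard errors were taken as the change over the root of the F statistic. Symbols of 27 genes had been turned into dates and entered no list. Replicates of FL and of ΔTFR1 differed by more than sampling noise (1.66 to 7.12 chi-square units a gene).

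GC content and length, known for 94.7% of tested genes, came from the longest protein-coding GENCODE transcript of a gene. For genes without a protein-coding transcript, the longest of any type was taken. Each library's lowess trend with GC content (span 0.3) was removed by an offset in 1 alternative. Others were DESeq2 1.42.0, other scalings, no filter, only the 2 groups, a replicate block, and leaving out each library. The pipeline was tested on simulated data. Genes named are SLNCR and linked genes, the 12 called genes that rose most and the 12 that fell most (mean log2 CPM 1 or more, groups apart), the 10 lowest p in each direction, every gene called with GC trends removed, and the 4 lowest p of each list with a called member. AURKB, HIF1A, RUNX1, RUSC1, SAE1, SMG1, the genes called in every fit with 1 library left out, and the promoters shown were picked after values were seen. A few genes reached by this rule are left unreported. The comparison, the 39 lists and the rules were chosen with earlier results of these data known.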

Additional observations from a re-analysis of the deposited data

How the results depend on the processing

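The main fit called 1440 genes between ΔTFR1 and FL. Totals in other fits were 8 after removal of GC trends and 1 after removal of GC and length trends. They were 304 with only the 2 groups (85 higher, 219 lower) and 22 to 2752 with 1 library left out. The cause of these shifts was not tested. The fit of 2 groups and the fits with 1 library left out have fewer libraries than the main fit. With no low-count filter 36.8% of called genes were higher and with DESeq2 34.1% (of 1300), against 43.8%; with 1 library left out the share ran from 4.55 to 43.2%. Deviations of same-numbered FL and ΔTFR1 libraries from their group means had correlations of -0.01, -0.03 and 0.04. Of the 3 numbers only the third ΔTFR1 library correlated best with the FL library of its own number. Correlations over all genes, many of low count, cannot settle whether the numbers pair libraries. With the replicate block 2231 genes were called, and 85 with the block and GC trends removed. SLNCR changed by -0.23 to 0.03 with 1 library left out. ΔTFR1 against empty vector gave 2 calls with no filter, and 0 with GC trends removed, with GC and length trends removed, or with GC trends removed and the replicate block, fits that lack SLNCR because it has no GC value. ΔTFR2 against ΔTFR1 gave 2 calls with no filter. A few genes changed sign: AGRN was -0.01 with GC trends removed, -0.014 with length too and -0.01 with the replicate block too; CTSD was -0.036, -0.033 and -0.036 in the same fits; HIST1H3D was -0.063 with GC and length trends removed and 0 with GC trends removed and the replicate block. Of the 152 called genes that the rule named, 7 were still called with GC trends removed, 48 with only the 2 groups and 117 of 126 with an adjusted p in DESeq2.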

Other observations

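Classes of gene differed in how often they were called between ΔTFR1 and FL, beside 10.1% over all genes. Of 12250 protein-coding genes 589 were called higher and 781 lower, 11.2% in all. Of 985 long noncoding RNA genes 22 were higher and 9 lower (3.15%), with a median change of 0.10, and of 350 pseudogenes 6 were higher and 1 lower (2%), with a median of 0.08. These medians were 0.10 and 0.08 with GC trends removed as well. The level of the gene went with the calls: in the lowest 10% of genes by mean level 6 were higher and 2 lower, and in the highest 10% 121 were higher and 250 lower. The median change was 0.121 in the lowest 10% and -0.0148 in the highest. With GC trends removed these medians were 0.0853 and -0.0162. Whether the medians of the gene classes go with level was not tested.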
